A study of Mus musculus with 6 samples.

Results

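The 4 knockout lines of a mouse lung epithelial cell line were compared, as 1 group, with both libraries of their unedited parental line, to describe the expression shift that the edited lines had in common. The knockout group held 4 libraries, 1 each from the Lingo1, Lingo2, Lingo3 and TROY knockout lines, all collected 24 hours after a confluent monolayer was scratched with a pipet tip. The parental group held 2 wild-type libraries, 1 collected 24 hours after the same scratch and 1 from an unscratched monolayer. Members were chosen by genotype label alone, and these 6 libraries were all 6 of the series. All came from MLE12 cells, an immortalized line derived from lung tumours of mice carrying a viral large T antigen under a surfactant protein C promoter. LINGO1, LINGO2 and LINGO3 are leucine-rich repeat membrane proteins, and TROY, encoded by Tnfrsf19, belongs to the tumour necrosis factor receptor family.

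Each knockout line had 1 library, so the spread within the knockout group was the spread between lines of different genotype, and the spread within the parental group included the scratch. The p-values below measure that spread, not the spread between repeat cultures of a line. The sources used here do not say how the lines were edited, whether each is a single clone, or how many passages separate them from the parental line. Editing and line history cannot be told apart from genotype.

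In neurons LINGO1 is known as a co-receptor of the Nogo receptor, with TROY or a related receptor as the signalling partner, and the complex acts to limit neurite growth. LINGO1 is also known to bind the epidermal growth factor receptor and lower its signalling. Immediate early genes such as Fos and Egr1 are transcribed within minutes of growth factor or stress signals, and feedback phosphatases of the DUSP family are induced with them. Genes of cholesterol and fatty acid synthesis are switched on together by SREBP factors when sterols are low. Paraspeckles are nuclear bodies built on the long non-coding RNA Neat1.

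Between 28109825 and 30776294 reads were counted in genes per library, and 12078 genes had a mean of at least 1 CPM (counts scaled to a common library size, here with TMM factors) and were tested. A count of 3 reads corresponded to between 0.0984 and 0.108 CPM. The epithelial markers Cdh1, Krt8 and Krt19 were abundant in every library, Krt18 had between 9 and 14 counts, and of the alveolar type II markers Abca3, Nkx2-1, Sftpb and Sftpc were present while Lamp3 and Slc34a2 had at most 3 counts. Sums of marker CPM, here and below, were scaled to total counts in genes without the TMM factors. They are therefore not on the scale of the CPM of single genes. The summed CPM of the 7 leukocyte markers lay between 1.73 and 3.22 in the knockout lines and between 1.95 and 1.98 in the parental libraries. Adgre1 had 0 counts everywhere and Ptprc no more than 3. Of the 5 mast cell markers Tpsb2 and Fcer1a had 0 counts everywhere and Kit carried the sum. The sums of the 8 fibroblast markers, 2700 to 3420 CPM in the knockout lines and 2680 to 2870 CPM in the parental libraries, were carried by Dcn and Col1a1, although the Lingo3 line alone held 348 counts of Pdgfrb and 62 of Col3a1, against at most 52 and 3 in any other library. The 7 endothelial markers summed to 159 to 186 CPM in the knockout lines and 99.4 to 104 CPM in the parental libraries, nearly all from Tek. The scratched parental library alone held 169 counts of Vwf, 74 of Kdr, 20 of Cdh5 and 11 of Cldn5, against at most 37, 21, 1 and 1 in any other library. Their part in the results was not tested.

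A gene was called when its adjusted p was under 0.05 in edgeR's quasi-likelihood test over all tested genes. Of the 12078 genes, 2390 (19.8%) were called, 1296 (10.7%) higher and 1094 (9.06%) lower in the knockout lines, and 4303 had an unadjusted p under 0.05. With total counts as the scaling, 2575 were called, 976 higher and 1599 lower. With no expression filter 2125 were called, 1042 higher and 1083 lower. The balance of directions therefore turned with the scaling and with the filter. A difference of at least 2-fold was fitted for 234 of the higher genes (1.94% of those tested) and 174 of the lower ones (1.44%). In 5570 genes the groups did not overlap, 2921 (24.2%) with all knockout lines above and 2649 (21.9%) with all below both parental libraries, and all 2390 called genes were among them. A called gene that keeps its sign when a library is left out is therefore no sign of stability.

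The call count rested on having both parental libraries. Below, a statement made with either parental library left out refers to 2 separate fits, each leaving out 1 of them, and holds in both. Without the scratched parental library 316 genes were called and without the unscratched one 377, in fits that assume the lone parental library to vary as the knockout lines do. The comparison without the unscratched library is the one in which every library was scratched. Without the Lingo1 knockout line 1340 genes were called, and without each of the other 3 lines between 2184 and 2892. Every count of called list members below stands beside 10.7% of all tested genes called higher and 9.06% called lower. The lists were chosen with earlier results of these data known, so a larger share in a list is a description, not a test. Of the 272 called members of the gene lists described below, 81 were called without the scratched and 84 without the unscratched parental library.

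Knockout lines differed from each other in fewer genes than from the parental line in most pairs, but not for TROY and Lingo3. Between 2 knockout lines, 11 (Lingo1 and Lingo2) to 363 (Lingo3 and TROY) genes differed at least 2-fold in CPM, while a knockout line and a parental library differed in 337 to 939. TROY differed from Lingo3 in 363 genes, and from the scratched and unscratched parental libraries in 337 and 340. The parental libraries differed from each other in 27 genes. The Lingo1 and Lingo2 knockout libraries, the closest pair by this count, were checked for being 1 library deposited under 2 labels. Their counts had a mean chi-square of 15.4 per gene, within the range of all pairs, whose lowest was 8.4 for the parental pair. They entered as 2 samples because the labels give them as such.

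**Figure D1:**
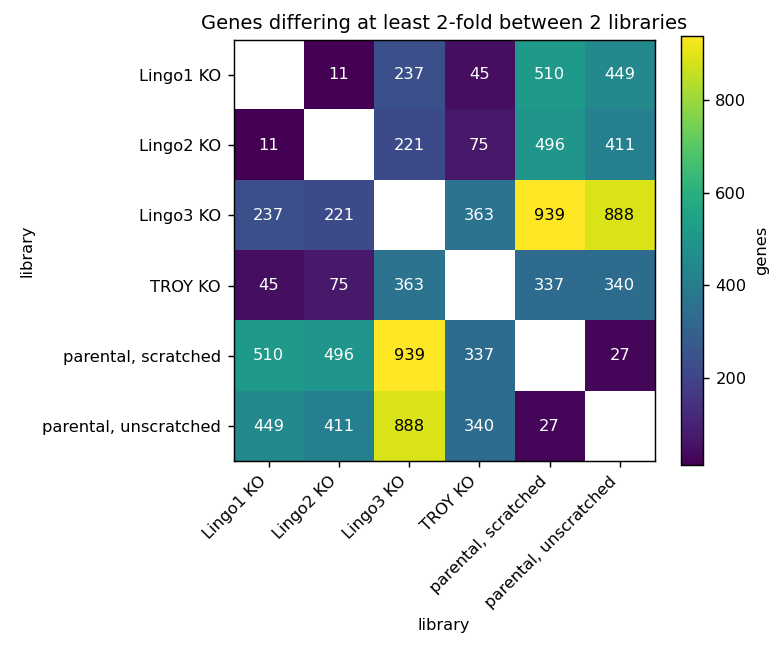
Number of genes that differed at least 2-fold in CPM between each pair of libraries, knockout lines first on both axes. The 8 knockout and parental pairs lie between 337 and 939 genes, and Lingo3 stands farthest from the parental libraries.

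Among the called genes, the Lingo3 knockout line moved farthest and the TROY line least. Over all tested genes TROY was not the closest line to the unscratched parental library. The median absolute log2 ratio to it was 0.187 for TROY, 0.18 for Lingo1 and 0.179 for Lingo2. To the scratched library it was 0.18 for TROY, 0.192 for Lingo1 and 0.187 for Lingo2. Among the 1296 higher genes Lingo3 was the highest of the 4 lines in 803 (62.0%) and TROY the lowest in 581 (44.8%). Among the 1094 lower genes Lingo3 was the lowest in 708 (64.7%) and TROY the highest in 516 (47.2%). All 4 lines passed 2-fold separately in 104 of the 234 higher genes (44.4%) and 101 of the 174 lower genes (58.0%) past 2-fold.

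The 4 targeted genes could not check the labels. Lingo1 stood at 57.0, 52.0, 51.3 and 34.7 CPM in the Lingo1, Lingo2, Lingo3 and TROY knockout lines, against 24.5 and 27.6 CPM in the scratched and unscratched parental libraries. It was higher in every knockout line, its own included, by 1.87-fold (log2 fold change 0.90 ± 0.18 SE, adjusted p = 0.00807), and was not called with either parental library left out. An edited gene can still be transcribed, so its level does not test the knockout. Lingo2 had 0 counts in all 6 libraries, which allows up to 0.108 CPM, Lingo3 had 1 count in all, and Tnfrsf19 had 13. Of the 8 tested genes of the LINGO and Nogo receptor pathway, Lingo1 was the only member called higher and Plxna3, a semaphorin receptor, the only member called lower, by 1.27-fold.

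The following sentences give CPM in the order Lingo1, Lingo2, Lingo3 and TROY for the knockout lines, and scratched then unscratched for the parental libraries. The 12 called genes with the widest gap between the nearest knockout and the nearest parental library in each direction are shown in the plot of widest-gap genes. Several are also members of the lists below, where their calls add no separate support. Cdh4, Gata5, Bgn and Ngef lay under 1 CPM in both parental libraries and passed the filter only through the knockout lines. Slc16a4, Twist1, Rac3 and Amy1 lay under 1 CPM in every knockout line and passed only through the parental libraries.

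Cdh4 and Gata5 had the widest gaps among higher genes. Cdh4, which encodes the adhesion protein R-cadherin, was at 3.07, 2.37, 6.04 and 1.63 CPM in the knockout lines, against 0 and 0.0349 CPM in the parental libraries. Its 385 counts over the knockout lines and 1 over the parental libraries give a ratio of 195 (95% exact interval 34.8 to 7730, counting error only). Gata5, a zinc finger transcription factor of heart and endoderm development, was at 5.63, 6.93, 11.8 and 5.05 CPM in the knockout lines, against 0.263 and 0.244 CPM in the parental libraries. It was 28.6-fold higher (log2 fold change 4.84 ± 0.57 SE, adjusted p = 0.000981). Both genes were near silent in the parental line and transcribed in all 4 knockout lines, without overlap. Cdh4 was not called with either parental library left out (adjusted p = 0.0697 without the scratched and 0.0567 without the unscratched one).

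Both lie on chromosome 2 of build GRCm38, Cdh4 at 179442431 to 179899373 and Gata5 at 180325133 to 180334699, 425760 bases apart. In a window from 178442431 to 181334699, chosen after these values were seen, 28 genes were tested. Of these 5 were called higher, the others being Lsm14b, Osbpl2 and Ythdf1, and Col20a1 was called lower, beside 10.7% and 9.06% of all tested genes. Cdh4 and Gata5 defined the window, and the calls beside them were about as frequent as over all tested genes. Col20a1, a collagen gene, was at 6.86, 8.78, 4.82 and 7.41 CPM in the knockout lines, against 19.2 and 19.8 CPM in the parental libraries. The median log2 fold change in the window was 0.19, against 0.01 over all tested genes.

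Biglycan, Bgn, a small matrix proteoglycan, was at 14.9, 12.6, 98.3 and 5.29 CPM in the knockout lines, against 0.756 and 0.733 CPM in the parental libraries. The groups did not overlap, but the knockout lines spread widely and Lingo3 set the mean. The fitted difference was 43.9-fold (log2 fold change 5.46 ± 1.49 SE, adjusted p = 0.0312), and 3.87 on the log2 scale without Lingo3. Bgn was not called by limma-voom (adjusted p = 0.144) or with either parental library left out. Plcb1, a phospholipase that acts downstream of G protein-coupled receptors, was at 22.9, 19, 40.4 and 15.7 CPM in the knockout lines, against 2.33 and 2.55 CPM in the parental libraries, 10.04-fold higher (adjusted p = 0.00127). Ngef, an exchange factor for small GTPases, was at 1.88, 1.59, 2.53 and 1.30 CPM in the knockout lines, against 0.296 and 0.279 CPM in the parental libraries, and lost its call with either parental library left out.

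A gastrokine, a small proline-rich protein and an orosomucoid gene completed the higher set beside the immediate early genes Fosb, Atf3, Egr2 and Fos. Gkn2, a gastrokine of mucosal epithelia, was at 8.41, 9.55, 11.1 and 7.58 CPM in the knockout lines, against 1.28 and 0.873 CPM in the parental libraries, 8.43-fold higher (adjusted p = 0.000212). Sprr2a3, a small proline-rich gene of the cornified envelope with near-identical copies, was at 18.4, 25.2, 44.9 and 15 CPM in the knockout lines, against 3.12 and 1.85 CPM in the parental libraries. Orm3, an acute phase orosomucoid gene in a cluster of similar copies, was at 21, 24.3, 24.0 and 11 CPM in the knockout lines, against 2.60 and 2.72 CPM in the parental libraries. In each of these genes the lowest knockout line lay well above the higher parental library, although counts of Sprr2a3 and Orm3 may be split among their copies. The list of mucins, trefoil factors, gastrokines and small proline-rich genes had 20 members, of which only Gkn2, Sprr2a3 and Sprr1a were tested. All 3 were called higher, Sprr1a at 3.41-fold, beside 10.7% of all tested genes. Gkn2 and Sprr2a3 had already been picked by their gap, so this count adds no support.

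Gpm6a (GRCm38, chromosome 8, 54954843 to 55060871) led the lower genes. This membrane glycoprotein, known from neurons, was at 4.26, 2.41, 2.30 and 4.45 CPM in the knockout lines, against 36.0 and 36.8 CPM in the parental libraries, 10.9-fold lower (log2 fold change -3.44 ± 0.20 SE, adjusted p = 6.23e-05). Twist1, a transcription factor of mesenchymal cells, was at 0.180, 0.212, 0.262 and 0.698 CPM in the knockout lines, against 2.27 and 2.51 CPM in the parental libraries, 6.89-fold lower. Its log2 fold change of -2.78 ± 0.38 SE became -3.42 without TROY, the line with the most transcript left. Slc16a4, a monocarboxylate transporter family member, was at 0.433, 0.884, 0.558 and 0.698 CPM in the knockout lines, against 3.12 and 3.28 CPM in the parental libraries. Tnfrsf25, a death domain receptor of the same receptor family as TROY, was at 4.12, 3.96, 2.30 and 4.89 CPM in the knockout lines, against 14.9 and 15.7 CPM in the parental libraries, 4.0-fold lower (adjusted p = 0.000554). The groups were far apart in each of these genes and the parental libraries close together.

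Among the other lower genes Rac3, a small GTPase of the Rac group, was at 0.758, 0.884, 0.558 and 0.897 CPM in the knockout lines, against 3.12 and 2.79 CPM in the parental libraries. Mir17hg, the host transcript of a microRNA cluster known for promoting proliferation, was at 1.08, 1.03, 1.08 and 1.30 CPM in the knockout lines, against 3.71 and 3.70 CPM in the parental libraries. The small nucleolar RNA host gene Snhg20 was 3.46-fold lower, the proacrosin-binding protein gene Acrbp 3.47-fold, Fam129c 3.51-fold, the tropomodulin gene Tmod4 3.97-fold and the amylase gene Amy1, which has near-identical copies, 3.82-fold. Fold changes of the 12 widest-gap lower genes lay between 3.29-fold (Mir17hg) and 10.9-fold (Gpm6a) lower. Twist1 and Amy1 fell under the 1 CPM filter when a parental library was left out and were not tested there.

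**Figure D2:**
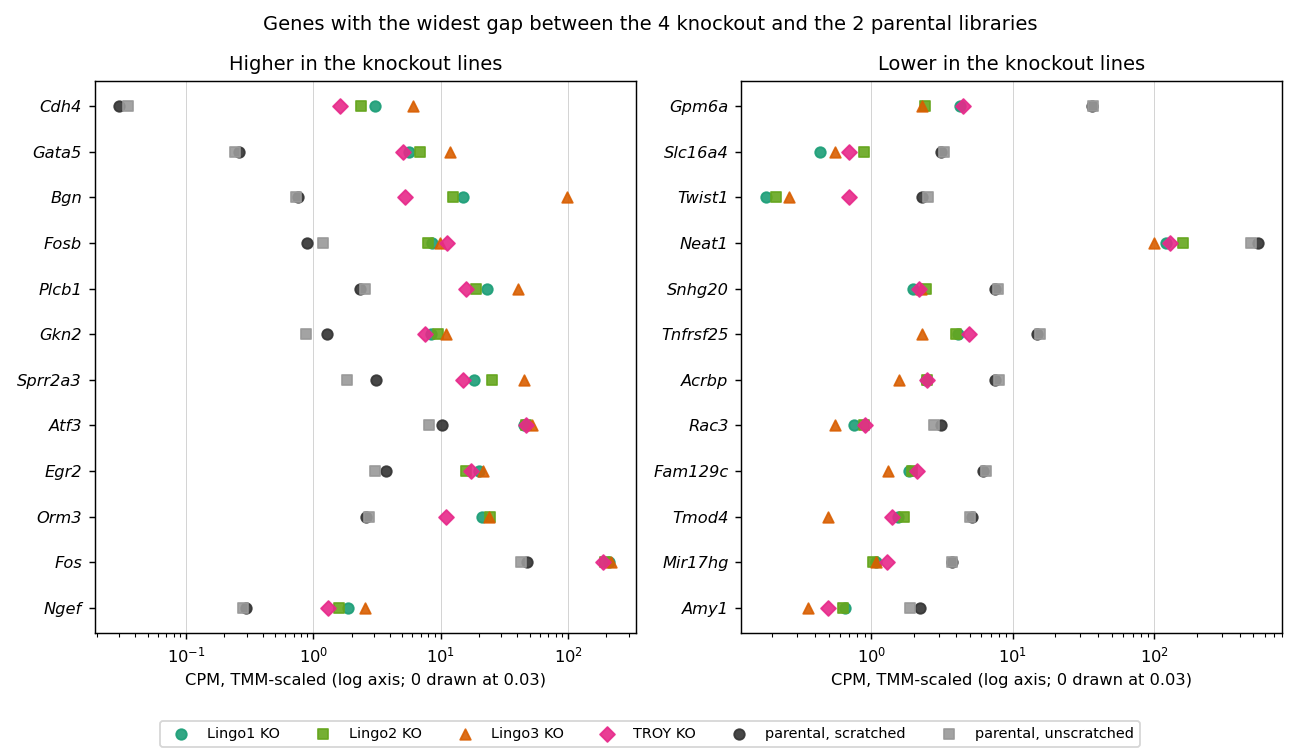
CPM of the 12 called genes in each direction with the widest gap between the nearest knockout and the nearest parental library, on a log axis, 1 point per library (values of 0 drawn at 0.03). In every gene the 4 coloured knockout points lie on the same side of both grey and black parental points, and Lingo3 stands apart from the other lines for Bgn.

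Immediate early genes were higher as a group. Of 24 tested members 19 were called higher and 0 lower, beside 10.7% and 9.06% of all tested genes. Their median log2 fold change was 0.63, against 0.01 for all genes. Fos, Fosb, Atf3 and Egr2 had already been picked by their gap, so their calls in this count add no support. Without the scratched parental library 11 members were called, and without the unscratched one 13. Fos, the AP-1 subunit, was at 208, 196, 218 and 188 CPM in the knockout lines, against 48.0 and 42.4 CPM in the parental libraries, 4.47-fold higher (log2 fold change 2.16 ± 0.10 SE, adjusted p = 1.14e-05). Fosb, a related AP-1 subunit, was at 8.59, 7.89, 9.91 and 11.1 CPM in the knockout lines, against 0.888 and 1.19 CPM in the parental libraries, 9.06-fold higher. Atf3, a stress-induced factor, was at 45.5, 46.4, 51.8 and 46.5 CPM in the knockout lines, against 10.2 and 8.10 CPM in the parental libraries, 5.20-fold higher. The 4 lines differed little among themselves in these 3 genes, TROY included.

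Egr2, a zinc finger factor, was at 20.0, 15.7, 21.6 and 17.2 CPM in the knockout lines, against 3.75 and 3.04 CPM in the parental libraries, 5.47-fold higher (adjusted p = 0.000128). Zfp36, which encodes tristetraprolin, a protein that binds AU-rich messages for decay, was at 104, 104, 108 and 87.5 CPM in the knockout lines, against 32.5 and 36.0 CPM in the parental libraries, 2.95-fold higher. Klf10 at 2.38-fold, Junb at 2.12-fold, Egr1 at 2.01-fold, Fosl1 at 1.88-fold, Jun at 1.55-fold and Myc at 1.5-fold were also called higher. Klf2 had a ratio of 2.32 with an adjusted p of 0.0517, and Nr4a2, Jund, Srf and Maff were not called. Fos, Fosb, Atf3, Egr2, Zfp36, Klf10, Junb and Egr1 were called with either parental library left out, while Fosl1, Jun and Myc were not.

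**Figure D3:**
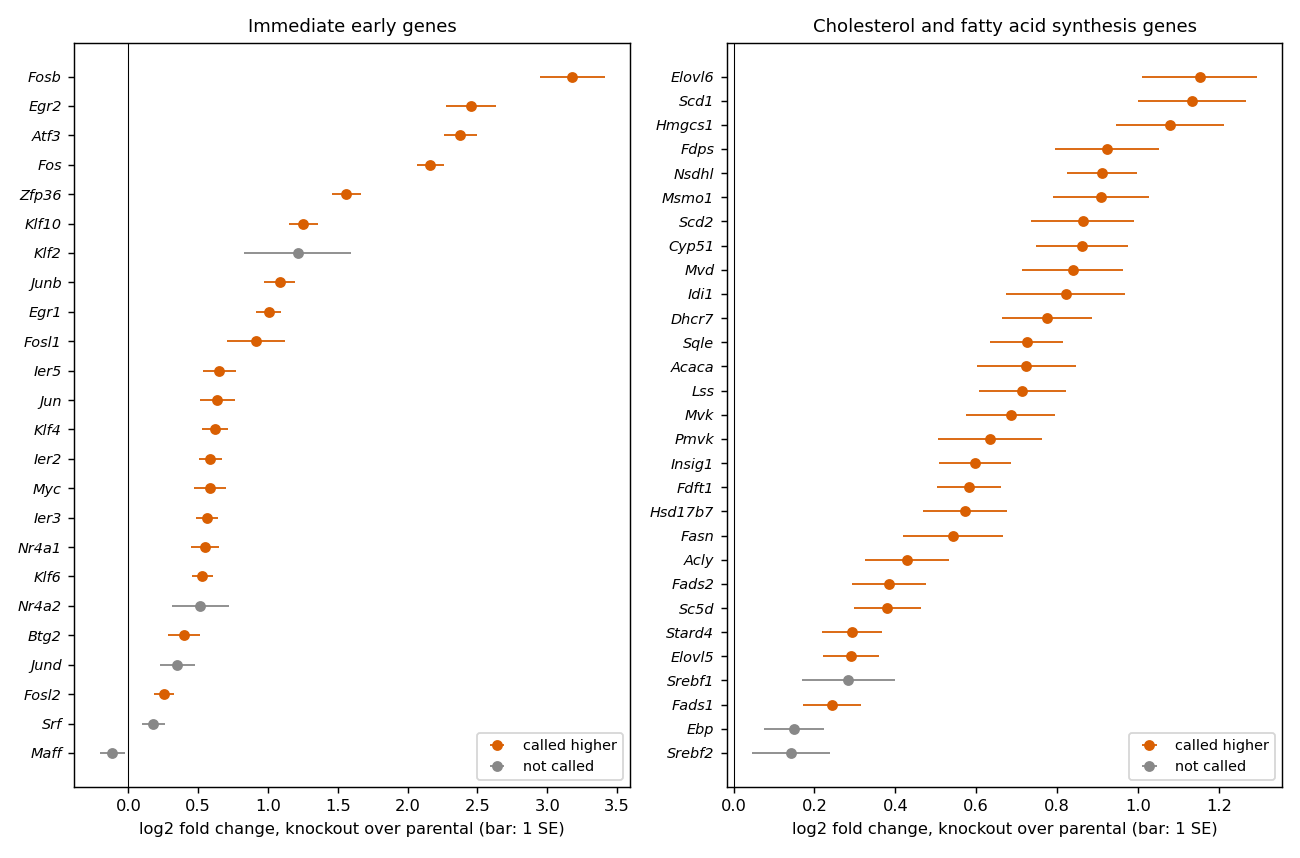
Log2 fold change (knockout lines over parental libraries, bar 1 SE) of each tested member of the immediate early list (left) and of 29 of the 32 tested members of the cholesterol and fatty acid synthesis list (right), called members in orange. Maff is the only immediate early member below 0, and no lipid synthesis member shown is below 0.

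Promoters of these genes were searched for binding motifs on both strands, in windows of 250 bases before to 50 after each RefSeq start. A match is a description of the letters, not evidence of binding. Over all, 6 motifs were searched in 4 lists. The CArG box, the site of serum response factor, was in 6 of 25 windows of the immediate early list (3 of 19 genes with a window), against 1.63% of 32851 windows of all genes. The cAMP element TGACGTCA was in 2 of the 25 windows (1.79% of all windows), and the AP-1 site TGANTCA in 0 (7.81% of all windows). The windows of Fos, Fosb and Atf3, looked at first, held no match to these 3 motifs. The promoters printed here were then chosen because they hold a CArG box, in capitals, and show what the matched windows look like. Egr2 has 5 partly overlapping windows, of which 4 hold the box, and the window shown is chr10:67537680-67537979 on the plus strand; that of Zfp36 is chr7:28379179-28379478 on the minus strand, both in RefSeq coordinates of GRCm38.p6.
Egr2 promoter: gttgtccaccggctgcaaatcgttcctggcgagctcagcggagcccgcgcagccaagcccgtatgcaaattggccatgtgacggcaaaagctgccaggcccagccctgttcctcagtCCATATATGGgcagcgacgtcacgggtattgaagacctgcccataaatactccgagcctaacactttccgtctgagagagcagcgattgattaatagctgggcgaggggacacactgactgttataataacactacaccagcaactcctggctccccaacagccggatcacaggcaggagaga
Zfp36 promoter: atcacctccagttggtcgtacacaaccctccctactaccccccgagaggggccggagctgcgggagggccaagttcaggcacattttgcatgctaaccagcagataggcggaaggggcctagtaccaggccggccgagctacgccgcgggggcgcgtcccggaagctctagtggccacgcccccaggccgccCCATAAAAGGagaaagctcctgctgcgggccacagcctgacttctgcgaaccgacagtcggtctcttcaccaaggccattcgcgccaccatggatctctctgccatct

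Feedback regulators of the ERK pathway were split, beside 10.7% of all tested genes called higher and 9.06% called lower. Of 16 tested members 6 were called higher and 3 lower, with a median log2 fold change of 0.20, and 3 were called with either parental library left out. The phosphatase gene Dusp1 was at 99.8, 100.1, 113 and 102 CPM in the knockout lines, against 43.8 and 42.1 CPM in the parental libraries, 2.42-fold higher (adjusted p = 0.00011). Dusp5 was 2.75-fold higher and the cyclin gene Ccnd1 1.61-fold, and all 3 kept their calls with either parental library left out. Dusp4 was at 13.4, 11.1, 33.6 and 16.6 CPM in the knockout lines, against 5.42 and 3.49 CPM in the parental libraries, 4.19-fold higher (adjusted p = 0.0135). The Sprouty-related inhibitors went the other way, with Spry1 1.5-fold, Spred3 1.63-fold and Spred1 1.28-fold lower, while Dusp6 and Etv5 were not called.

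The ligand genes Hbegf, Tgfa, Areg and Ereg of the epidermal growth factor receptor were higher, the receptor gene Egfr was lower and the related receptor gene Erbb3 was 1.3-fold higher. Of 11 tested ligands, receptors and regulators 6 were called higher and 1 lower, with 3 called with either parental library left out. Hbegf was at 68.9, 64.7, 60.7 and 60.1 CPM in the knockout lines, against 31.2 and 37.9 CPM in the parental libraries, 1.84-fold higher (adjusted p = 0.000863). Tgfa was 1.93-fold, Areg 2.32-fold and Ereg 2.27-fold higher, and Errfi1, an intracellular inhibitor of the receptor, 1.96-fold. Egfr, the receptor, was at 6.53, 6.51, 4.95 and 7.88 CPM in the knockout lines, against 13.5 and 14.8 CPM in the parental libraries, 2.19-fold lower (log2 fold change -1.13 ± 0.16 SE, adjusted p = 0.00182). Hbegf, Tgfa and Egfr kept their calls with either parental library left out, and Areg, Ereg and Erbb3 did not.

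Cholesterol and fatty acid synthesis showed the highest share of called members among lists of 5 or more tested genes with all 6 libraries, but not with a parental library left out, when keratins had a higher share. Of 32 tested members 29 were called higher and 0 lower, with a median log2 fold change of 0.72, and all 32 had a fold above 1. Without the scratched parental library 17 were called, and without the unscratched one 12. Hmgcs1, which makes HMG-CoA, was at 327, 319, 428 and 345 CPM in the knockout lines, against 185 and 151 CPM in the parental libraries, 2.11-fold higher (log2 fold change 1.08 ± 0.13 SE, adjusted p = 0.00123). Nsdhl, a sterol dehydrogenase, was at 97.0, 94.8, 109 and 94.7 CPM in the knockout lines, against 54.7 and 50.5 CPM in the parental libraries, 1.88-fold higher. Scd1, which desaturates fatty acids, was at 694, 623, 892 and 736 CPM in the knockout lines, against 346 and 324 CPM in the parental libraries, 2.19-fold higher. Differences in this pathway were small per gene, shared by all 4 lines and without overlap between the groups in 31 of the 32, beside 24.2% of all tested genes with every knockout line above both parental libraries.

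Elovl6, a fatty acid elongase, was 2.22-fold higher, Fdps, which makes farnesyl pyrophosphate, 1.90-fold, and Sqle, which makes squalene epoxide, 1.65-fold. The factors Srebf1 and Srebf2, with ratios of 1.22 and 1.10, and the isomerase Ebp, with 1.11, were the 3 members not called. Hmgcs1, Nsdhl, Scd1, Elovl6, Fdps and Sqle were called with either parental library left out.

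In this list 19 of 22 genes with a window held a CCAAT box, the site of NF-Y, in 20 of 27 windows, against 37.4% of all windows. The sterol element TCACNCCAC was in 1 of the 27 windows, that of Hmgcs1, against 1.24% of all windows. Insig1, looked at first, held 1 CCAAT box, Elovl6 held none, and Scd1, Sqle and Fdft1 have no entry. Hmgcs1 (chr13:119690101-119690400, plus strand) and Nsdhl (chrX:72918271-72918570, plus strand) are printed because each holds 4 CCAAT boxes, in capitals on either strand. In Hmgcs1 the sterol element is the 9-base run in capitals.
Hmgcs1 promoter: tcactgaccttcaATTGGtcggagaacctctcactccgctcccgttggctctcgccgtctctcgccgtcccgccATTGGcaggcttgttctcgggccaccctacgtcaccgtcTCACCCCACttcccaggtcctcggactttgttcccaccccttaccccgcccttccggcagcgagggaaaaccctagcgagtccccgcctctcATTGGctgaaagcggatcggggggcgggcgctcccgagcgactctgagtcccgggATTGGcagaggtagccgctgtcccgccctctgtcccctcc
Nsdhl promoter: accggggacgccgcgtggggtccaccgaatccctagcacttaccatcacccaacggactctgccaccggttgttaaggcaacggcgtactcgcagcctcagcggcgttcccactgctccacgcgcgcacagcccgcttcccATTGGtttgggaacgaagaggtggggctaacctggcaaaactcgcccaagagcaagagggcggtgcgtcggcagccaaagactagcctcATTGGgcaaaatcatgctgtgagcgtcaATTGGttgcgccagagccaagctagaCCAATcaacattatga

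Glycolysis and the oxidative stress response were higher in part. Of 27 tested glycolysis and hypoxia genes 13 were called higher and 0 lower (median log2 fold change 0.40), with 1 called without the scratched parental library, 0 without the unscratched one and 5 without Lingo1. Pgk1, phosphoglycerate kinase, was at 82.9, 86.2, 95.7 and 76.8 CPM in the knockout lines, against 59.3 and 50.4 CPM in the parental libraries, 1.56-fold higher (adjusted p = 0.00401). The hexokinase genes Hk1 and Hk2 were each 1.52-fold higher, Pgam1 1.43-fold and the glucose transporter gene Slc2a1 1.33-fold, while the hypoxia targets Vegfa, Car9 and Ndrg1 were not called. Of 35 tested nuclear genes of oxidative phosphorylation 2 were called higher, Cox5a and Sdha, each at or below 1.32-fold, and 0 lower, and neither was called with either parental library left out.

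Of 21 tested NRF2 target genes 11 were called higher and 0 lower (median log2 fold change 0.40), with 2 called without the scratched and 1 without the unscratched parental library. Tkt, the pentose phosphate enzyme transketolase, was at 279, 268, 305 and 279 CPM in the knockout lines, against 155 and 158 CPM in the parental libraries, 1.80-fold higher (log2 fold change 0.85 ± 0.08 SE, adjusted p = 0.00031), and kept its call with either parental library left out. Srxn1, sulfiredoxin, was at 186, 189, 253 and 173 CPM in the knockout lines, against 130 and 120 CPM in the parental libraries, 1.60-fold higher. Gstp1 was 2.40-fold and Nqo1 1.34-fold higher, while Hmox1, Gclc and Txnrd1 were not called. The antioxidant element TGACNNNGC was in 8 of 22 windows (8 of 17 genes with a window), against 12.4% of all windows. The AP-1 site was in 5 of the 22 windows (5 genes), against 7.81% of all windows. Tkt, Osgin1 and Cbr3 held no match, and Srxn1 (chr2:152105274-152105573, plus strand) is printed because it holds an antioxidant element, in capitals on the minus strand.
Srxn1 promoter: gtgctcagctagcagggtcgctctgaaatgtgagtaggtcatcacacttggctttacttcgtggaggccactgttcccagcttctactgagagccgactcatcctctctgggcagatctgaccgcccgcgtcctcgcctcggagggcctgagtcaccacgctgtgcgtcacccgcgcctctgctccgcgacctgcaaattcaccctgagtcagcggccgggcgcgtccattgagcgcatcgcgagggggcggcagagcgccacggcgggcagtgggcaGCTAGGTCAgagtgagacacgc

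Targets of the unfolded protein and integrated stress responses were mixed at the level of single genes. Of 19 tested members 9 were called higher and 1 lower, with 3 and 4 called without the scratched and the unscratched parental library and 6 without Lingo1. Trib3, a pseudokinase gene, was at 16.7, 18.1, 19.9 and 16.1 CPM in the knockout lines, against 8.65 and 7.36 CPM in the parental libraries, 2.21-fold higher (adjusted p = 0.000836). The amino acid transporter gene Slc7a5 was 1.85-fold higher and another, Slc7a3, 3.71-fold lower, while Atf4 and Ddit3 were not called. Of 21 tested p53 target genes 9 were called higher and 0 lower, with 1 called with either parental library left out and 4 without Lingo1. Cdkn1a, the cell cycle inhibitor p21, was that gene, at 19.7, 15.2, 20.5 and 15.9 CPM in the knockout lines, against 4.64 and 5.30 CPM in the parental libraries, 3.59-fold higher (adjusted p = 0.00031). Mdm2, Bax and Ccng1 had ratios of 0.947, 0.991 and 1.24, of which Ccng1 alone was called.

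Cell cycle genes were called, in either direction, about as often as all tested genes, of which 19.8% were called. Of 24 tested S phase genes 1 was called higher, Rrm2 at 1.31-fold, and 3 lower, Cdc45, Mcm7 and Rpa2, by at most 1.23-fold. Of 22 tested G2 and mitosis genes 4 were called higher, led by Tpx2 at 1.45-fold, and 0 lower. In both lists 0 members were called with either parental library left out. All knockout lines lay below both parental libraries in 15 of the 24 S phase genes, beside 21.9% of all tested genes, and above both in 14 of the 22 G2 and mitosis genes, beside 24.2%. The median log2 fold change was -0.14 for S phase genes and 0.19 for G2 and mitosis genes, and 4 of 24 and 20 of 22 members had a log2 fold change above 0. Without Lingo1, 1 S phase gene was called, and with total counts as the scaling 9.

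Neat1, Malat1 and 5 other members of the nuclear RNA list were lower in the knockout lines, and the other 9 of 16 were not called. Neat1 (GRCm38, chromosome 19, 5824708 to 5845478) was at 120, 158, 99.5 and 129 CPM in the knockout lines, against 537 and 480 CPM in the parental libraries, 4.02-fold lower (log2 fold change -2.01 ± 0.14 SE, adjusted p = 0.000128), a call kept with either parental library left out. Malat1, an abundant nuclear long non-coding RNA, was at 84.5, 116, 68.9 and 118 CPM in the knockout lines, against 254 and 210 CPM in the parental libraries, 2.40-fold lower, and was not called without the scratched parental library. Xist, the RNA of X inactivation, was 1.98-fold lower and Kcnq1ot1, an imprinted antisense RNA, 1.91-fold. In all 7 of 16 tested members of this list were called lower and 0 higher (median log2 fold change -0.43), with 1 and 3 called without the scratched and the unscratched parental library. The paraspeckle protein gene Pspc1 was 1.35-fold lower, while Nono and Sfpq were not called. Fewer cells with an RNA and less RNA per cell cannot be told apart in bulk libraries.

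Long non-coding genes as a class were called lower more often than other genes. Of 383 tested long non-coding genes 95 (24.8%) were called lower and 16 (4.18%) higher, with a median log2 fold change of -0.22, against 975 (8.51%) lower and 1269 (11.1%) higher of 11451 protein-coding genes. Whether counting used strand is not stated in the labels or the files, so antisense and overlapping genes are uncertain. Among protein-coding genes, an annotated retained-intron transcript was present for 68.1% of those called lower and 54.7% of those called higher, against 60.7% of all tested.

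Library measures moved with the same groups. The share of uniquely aligned reads in no counted feature was 5.44%, 6.41%, 4.98% and 6.20% in the knockout lines, against 8.02% and 7.80% in the parental libraries, with exact 95% Clopper-Pearson intervals, which cover counting error only, as narrow as 4.976% to 4.991% in Lingo3 and 8.015% to 8.034% in the scratched parental library. The means were 5.76% ± 0.665 (SD, n = 4) and 7.91% ± 0.16 (SD, n = 2), with an exact permutation p of 0.0667, the smallest that 15 splits allow (0.111 adjusted over 5 measures). Reads in lincRNA genes made up 0.157% ± 0.0134 of reads in genes in the knockout lines and 0.259% ± 0.00983 in the parental libraries, with the same exact permutation p. The groups did not overlap in either measure. Neat1, Malat1 and Xist are themselves lincRNA genes, so the lincRNA share includes their reads and is not separate from their lower levels. The part of the reads in no counted feature in the lower levels of nuclear RNAs was not tested.

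**Figure D4:**
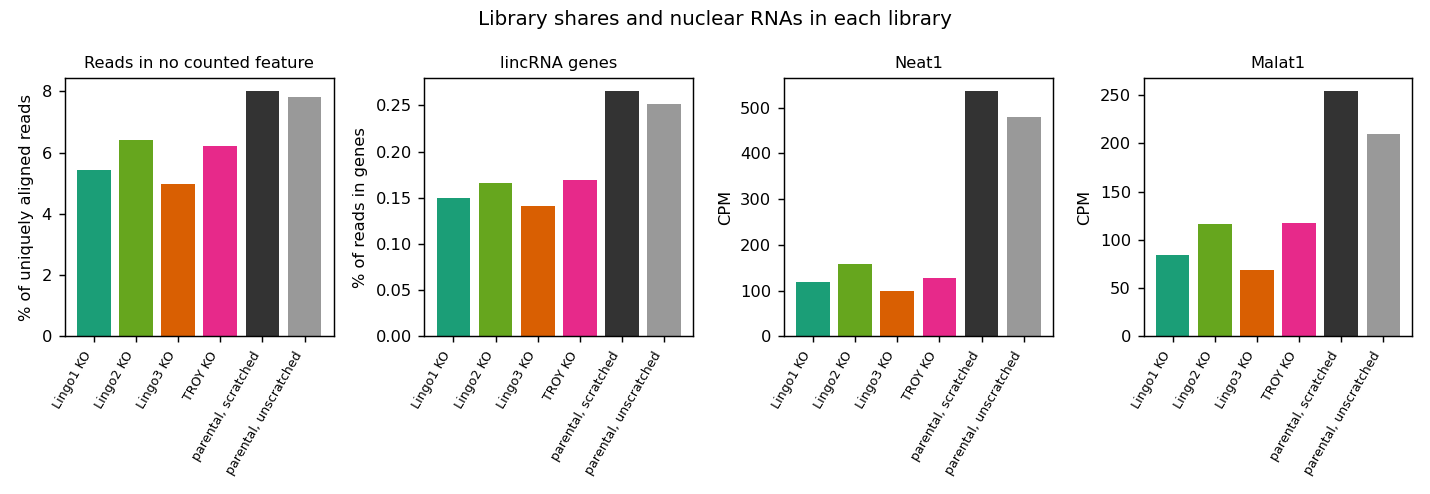
Per library, from left to right: reads in no counted feature (% of uniquely aligned reads), reads in lincRNA genes (% of reads in genes), and CPM of Neat1 and Malat1; bars start at 0 and stand for 1 library each. In each panel the 4 knockout bars are shorter than both parental bars.

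Most airway genes and keratins tested were higher, but only 7 of the 16 airway members and 6 of the 16 keratins were tested. Krt14 and Krt13 belong to both lists, so the counts of the lists are not separate. The summed CPM of the 5 epithelial markers, scaled to total counts, was 2710 to 2900 in the knockout lines and 2140 to 2270 in the parental libraries. Of 7 tested airway basal, ciliated and secretory genes 6 were called higher and 0 lower (median log2 fold change 1.54), with 3 and 4 called without the scratched and the unscratched parental library. Krt14, a basal cell keratin, was at 175, 179, 203 and 127 CPM in the knockout lines, against 43.4 and 49.1 CPM in the parental libraries, 3.70-fold higher (log2 fold change 1.89 ± 0.17 SE, adjusted p = 0.000309). Muc5ac, a secreted mucin, was at 4.91, 4.56, 6.53 and 6.12 CPM in the knockout lines, against 1.71 and 1.60 CPM in the parental libraries, 3.34-fold higher. Trp63, the basal cell factor p63, was at 4.01, 3.47, 13.5 and 2.83 CPM in the knockout lines, against 0.855 and 1.12 CPM in the parental libraries, 6.08-fold higher (adjusted p = 0.041), with Lingo3 far above the other lines. Muc5b, Krt13 and the ciliated cell gene Tppp3 were also called, and Foxj1 was not. Krt14, Krt13 and Muc5ac kept their calls with either parental library left out. Of 6 tested keratins 4 were called higher and 0 lower, with Krt80 at 1.78-fold and Krt8 at 1.51-fold, and 4 were called with either parental library left out.

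Alveolar genes moved in both directions, beside 10.7% of all tested genes called higher and 9.06% called lower. The summed CPM of the 8 type II markers, scaled to total counts, was 438 to 625 in the knockout lines and 365 to 401 in the parental libraries. Of 11 tested type II cell genes 4 were called higher and 2 lower, and 2 were called with either parental library left out. Sftpb, surfactant protein B, was at 164, 144, 164 and 87.0 CPM in the knockout lines, against 35.6 and 40.1 CPM in the parental libraries, 3.69-fold higher (log2 fold change 1.89 ± 0.24 SE, adjusted p = 0.00123). Sftpc, surfactant protein C, was at 40.7, 42.0, 81.9 and 19.9 CPM in the knockout lines, against 18.3 and 16.5 CPM in the parental libraries, 2.65-fold higher with an adjusted p of 0.0497, and TROY lay close to the parental level. The lung factor Cebpa was 2.34-fold higher, the lung chemokine gene Cxcl15 2.99-fold lower and Lpcat1, an enzyme of surfactant lipid synthesis, 1.51-fold lower, while Abca3 and Nkx2-1 were not called. Sftpb and Lpcat1 were the members called with either parental library left out. Of 13 tested type I cell genes 3 were called higher, Cav1, Emp2 and Rtkn2, by at most 1.43-fold, and 0 lower; 0 were called with either parental library left out and 6 without Lingo3.

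Among 19 tested lung and foregut transcription factors 4 were called higher and 2 lower, with 2 called with either parental library left out. Foxp2 was at 37.4, 36.7, 32.8 and 42.8 CPM in the knockout lines, against 64.3 and 69.6 CPM in the parental libraries, 1.79-fold lower (adjusted p = 0.00114). Sox9, a progenitor factor, was 1.55-fold higher and Foxa1 1.33-fold lower, while Gata4, Gata6 and Foxa2 were not called beside Gata5. Of 19 tested epithelial junction genes 3 were called higher and 2 lower, with 2 and 3 called without the scratched and the unscratched parental library. Pkp1, a desmosomal plakophilin, was at 12.8, 13.1, 12.1 and 11.3 CPM in the knockout lines, against 3.71 and 3.77 CPM in the parental libraries, 3.29-fold higher (adjusted p = 0.000164). Cdh1, E-cadherin, was 1.53-fold and Epcam 1.89-fold higher, and Tjp3, a tight junction scaffold gene, 1.66-fold lower.

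Chains of laminin-332 and the integrin gene Itga6 were higher. The laminin-332 chains Lamb3 and Lama3 were 2.83-fold and 1.72-fold higher, and Itga6, an alpha chain of their receptor, 2.12-fold, all called with either parental library left out. Lamb3 was at 28.9, 23, 25.8 and 20.1 CPM in the knockout lines, against 8.35 and 8.94 CPM in the parental libraries (adjusted p = 0.000569). In all 10 of 19 tested integrin and laminin genes were called higher and 1 lower (median log2 fold change 0.42), Itgb8 by 2.12-fold, with 4 called with either parental library left out and 6 without Lingo1. Itgb1 and Itgb4, which encode the beta chain partners of Itga6, were not called.

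Collagens and matrix genes changed in both directions. Of 16 tested collagen genes 7 were called higher and 2 lower, with 2 called with either parental library left out and 5 without Lingo1. Col8a1 was at 121, 85.9, 85.6 and 102 CPM in the knockout lines, against 48.4 and 44.3 CPM in the parental libraries, 2.12-fold higher (adjusted p = 0.00144). Col11a1 was at 0.686, 0.460, 1.48 and 0.864 CPM in the knockout lines, against 3.98 and 4.85 CPM in the parental libraries, 4.98-fold lower. Both collagens kept their calls with either parental library left out. Col1a1 was at 170, 136, 398 and 146 CPM in the knockout lines, against 44.8 and 62.3 CPM in the parental libraries, 3.97-fold higher (adjusted p = 0.0122), but was not called with either parental library left out.

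Of 24 tested matrix glycoprotein genes 8 were called higher, among them Bgn, Spp1, Thbs1 and Fbn1, and 4 lower, with 0 called without the scratched parental library, 1 without the unscratched one and 7 without Lingo2. Tnc, tenascin C, was at 41.1, 38.3, 6.30 and 27.7 CPM in the knockout lines, against 58.0 and 70.8 CPM in the parental libraries, and missed the threshold (adjusted p = 0.109) as the knockout lines spread widely. Of 21 tested matrix proteases and inhibitors 3 were called higher and 3 lower, with 1 called with either parental library left out, Adamts10 at 2.51-fold lower. Of 14 tested mesenchymal genes 5 were called higher, Cdh4, Fbln2, S100a4, Snai1 and Vim, and 1 lower, Twist1, with 1 and 2 called without the scratched and the unscratched parental library. Cdh4 and Twist1 had already been picked by their gap, and Cdh4 passed the filter only through the knockout lines. The median of the mesenchymal list, 0.15, turned to -0.02 with no filter and with a mean of at least 5 CPM.

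Other signalling lists varied in their share of called members. Of 18 tested tumour necrosis factor receptors and ligands 2 were called higher and 2 lower, close to the 10.7% and 9.06% of all tested genes, with 2 called with either parental library left out. Tnfrsf4 was 3.32-fold lower beside Tnfrsf25, and Tnfrsf21, a death receptor, and Tnfrsf23, a decoy receptor, were 1.60-fold and 2.49-fold higher. Of 18 tested YAP and TAZ targets 5 were called higher and 0 lower, with 3 called with either parental library left out: Axl, a receptor kinase, at 1.64-fold, and Ccn2 and Ccn1, secreted matricellular proteins, at 1.58-fold and 1.55-fold. Of 19 tested TGF-beta and activin genes 5 were called higher and 2 lower, with 1 and 2 called without the scratched and the unscratched parental library and 4 without Lingo1. Id1, an inhibitor of basic helix-loop-helix factors, was 1.84-fold higher and kept its call with either parental library left out.

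Of 17 tested Wnt genes 6 were called higher and 2 lower (median log2 fold change 0.64), with 0 and 1 called without the scratched and the unscratched parental library and 5 without Lingo1. Sfrp2, a secreted Wnt modulator, was at 6.71, 6.33, 12.3 and 6.58 CPM in the knockout lines, against 1.35 and 1.64 CPM in the parental libraries, 5.36-fold higher (adjusted p = 0.00231). Of 11 tested Notch genes Hes1, a target of the pathway, was the only member called, 1.69-fold higher and also with either parental library left out; without Lingo3 2 genes were called and without TROY 3. Notch1 was at 1.70, 1.59, 9.22 and 1.16 CPM in the knockout lines, against 0.592 and 0.209 CPM in the parental libraries (adjusted p = 0.0858). Of 11 tested insulin-like growth factor genes 4 were called higher and 0 lower, with 0 called with either parental library left out, 1 without Lingo1 and 7 without Lingo3.

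Of 13 tested PDGF and VEGF pathway genes 3 were called higher and 2 lower, with 1 called with either parental library left out, Tek, and 3 without Lingo1. Tek, the angiopoietin receptor, was at 185, 164, 186 and 161 CPM in the knockout lines, against 86.5 and 102 CPM in the parental libraries, 1.85-fold higher (adjusted p = 0.000714). The list's median of 0.14 turned to -0.01 with no filter and with a mean of at least 5 CPM. Of 33 tested axon guidance genes 5 were called higher and 5 lower, with 2 and 1 called without the scratched and the unscratched parental library and 4 without Lingo1. Over all tested genes 10.7% were called higher and 9.06% lower. The plexin gene Plxna2 was 1.74-fold higher and the semaphorin gene Sema4c 1.55-fold lower.

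The V-ATPase list held 1 higher and 4 lower members of 17 tested, beside 10.7% and 9.06% of all tested genes. Atp6v0a4, a subunit of the proton pump in acid-secreting cells, was at 43.0, 43.2, 76.9 and 44.6 CPM in the knockout lines, against 10.1 and 11.7 CPM in the parental libraries, 4.77-fold higher (log2 fold change 2.26 ± 0.26 SE, adjusted p = 0.000863), and was the member called with either parental library left out. The 4 lower members were at most 1.35-fold lower, and 2 members were called without Lingo1. Of 19 tested S100 and annexin genes 9 were called higher and 0 lower, with 3 called with either parental library left out and 5 without Lingo1. Anxa8, a squamous epithelial annexin, was at 458, 513, 456 and 348 CPM in the knockout lines, against 146 and 152 CPM in the parental libraries, 2.99-fold higher (adjusted p = 0.000309). Of 14 tested complement and acute phase genes 7 were called higher, led by Orm3 and C3 (5.13-fold), and Cd55, an inhibitor of complement, was called 1.60-fold lower, with 3 and 2 called without the scratched and the unscratched parental library.

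Interferon response genes were not higher by the test. Of 28 tested members 0 were called higher and 3 lower, Stat2 by 1.67-fold, Ifit3 by 1.57-fold and Irf1 by 1.43-fold, although the list's median was 0.24. Stat2 was at 18.1, 20.1, 19.9 and 20.4 CPM in the knockout lines, against 33.1 and 32.4 CPM in the parental libraries (adjusted p = 0.000962). Without Lingo3 6 members were called, without TROY 8, without the scratched parental library 2 and without the unscratched one 1. Of 11 tested antigen presentation genes Cd74 was the only member called, 3.10-fold higher, with 0 called with either parental library left out, Lingo1 or Lingo2, and 4 without TROY. Of 9 tested chemokines and cytokines Ccl2 was 2.21-fold higher and Cxcl15 lower, with 0 called with either parental library left out, where Cxcl15 fell under the filter, and 1 without Lingo1 or without Lingo2.

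Of 9 tested neuronal genes Sez6l and Tubb3 were called higher and Gpm6a and Nlgn2 lower, with Gpm6a the member called with either parental library left out. The log2 fold change of Sez6l was 2.42, and 3.16 without the unscratched parental library. Sez6l passed the filter only through the knockout lines. Of 4 tested mast cell protease genes Mcpt1 was called, at 169, 159, 59.5 and 99.9 CPM in the knockout lines against 33.8 and 25.2 CPM in the parental libraries, 4.12-fold higher (adjusted p = 0.00673), and was not called with either parental library left out. Without Lingo3 all 4 were called. Of 7 tested mitochondrially encoded genes mt-Nd1 and mt-Nd2 were called, each 1.31-fold higher, but not with total counts as the scaling or without any single library other than Lingo3. Of the tested members of the endothelial, fibroblast and leukocyte lists (3, 4 and 2), Tek and Col1a1 were called higher and 0 lower. Without Lingo3, 2 endothelial and 2 fibroblast markers were called. Vwf, at 0.614, 0.389, 1.21 and 0.499 CPM in the knockout lines against 5.56 and 0.558 CPM in the parental libraries, missed the threshold and was high in the scratched parental library alone.

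**Figure D5:**
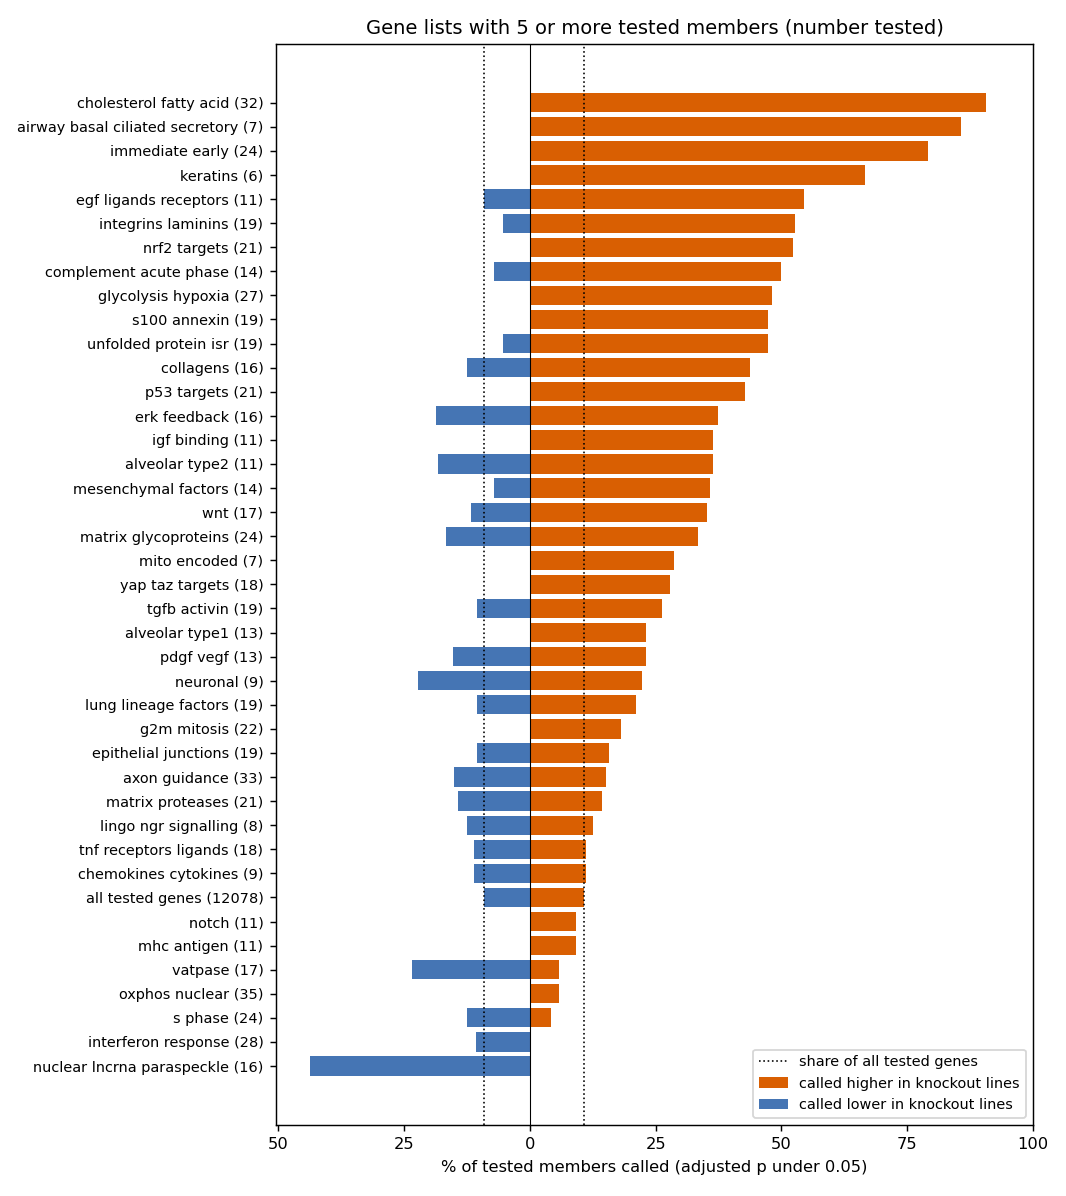
Percent of the tested members of each list of 5 or more tested genes (number tested in brackets) that were called higher (right, orange) or lower (left, blue) in the knockout lines, with dotted lines at the 10.7% and 9.06% of all tested genes. Cholesterol and fatty acid synthesis is at the top with 29 of 32 higher, and the nuclear RNA list at the bottom with 7 of 16 lower.

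The called genes were spread over all chromosomes. Median log2 fold changes per autosome lay between -0.04 (chromosome 17) and 0.07 (chromosome 4). On chromosome 19 15.2% of tested genes were called higher, on chromosome 5 12.8% were called lower, and of 11 tested mitochondrial genes, transfer and ribosomal RNAs included, 5 were called higher and 0 lower. Genes called higher had a median GC content of 51.0%, against 49.7% of all tested genes, and a median of 44.5 CPM, against 36.3 CPM of all tested genes and 22.1 CPM of those called lower.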

How the data were processed

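Messenger RNA was measured by sequencing in 6 MLE12 libraries, prepared with an RNAeasy Plus and a TruSeq mRNA kit per the labels' protocols. The submitters' processing notes name Trimmomatic 0.39, STAR, HTSeq and edgeR with build GRCm38, without order, settings or other versions. The deposited table holds raw counts of reads per gene for each library as the authors made them. The authors also deposited a table whose unit, RPKM, was inferred from its values; the gene lengths they imply have a median of 0.79 of the exon union over 8312 genes, and no result rests on it.

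Of 46078 gene IDs, 45229 matched GENCODE M21. Counts were scaled with TMM factors and genes averaging 1 CPM or more were tested with edgeR 4.0.16 (glmQLFit and glmQLFTest, R 4.3.3), 4 knockout against 2 parental libraries with no covariate, leaving 4 residual degrees of freedom; p-values were adjusted by Benjamini-Hochberg over all tested genes. SE is the log2 fold change divided by the square root of F. Shares of libraries were compared by a 2-sided exact permutation test. DESeq2 1.42.0 and limma 3.58.1 (voom) were alternatives. On simulated counts of 12003 genes for this comparison, 200 genes were changed, 50 at each fold. At 1.5-fold 33 of 50 were recovered, at 2-fold 43 of the 47 that passed the filter, and at 4-fold all 50. At 8-fold only 43 of 50 passed the filter, and all 43 were recovered. Beside these recovered genes there were 20 false calls, a larger share of the calls than the adjusted p threshold is meant to allow. The calls in the data may therefore hold more false ones than the threshold states.

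Named genes were the 4 targets, the 12 called genes in each direction with the widest gap on the log2 CPM scale (prior count 2; Gm, Rik, clone and pseudogene names left out) and up to 4 called members of each list by adjusted p, or up to 2 by p where none was called; other members were chosen after their values were seen. The members and lists were chosen with earlier results of these data known. Promoter sequences are RefSeq windows. Some members counted in the lists are not reported here by name.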

Additional observations from a re-analysis of the deposited data

Results flagged for a closer look

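In 10 of the 159 named genes 1 knockout line stood apart from the other 3, with a gap to its nearest neighbour, as a share of the group's whole range, above Dixon's 95% limit for 4 samples. Chance flags about 1 in 20 groups. The Lingo3 line was the one apart in 9 of the 10.

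Lingo3 was the highest line for Atf3 at 51.8 CPM (next 46.5), Dusp1 at 113 CPM (next 102) and Nsdhl at 109 CPM (next 97). It was also highest for the amino acid transporter gene Slc7a5 at 90.6 CPM (next 76.3), Sfrp2 at 12.3 CPM (next 6.71) and Atp6v0a4 at 76.9 CPM (next 44.6). It was the lowest line for Acrbp at 1.57 CPM (next 2.42), Tmod4 at 0.492 CPM (next 1.4) and the plasminogen activator gene Plat at 154 CPM (next 181). The TROY line was the highest for Spred3, at 12.4 CPM (next 10.2).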

How the results depend on the processing

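The number of called genes stayed within 1.5 times of 2390 under RLE and total-count scaling, no filter, a 5 CPM minimum, DESeq2, limma-voom, edgeR's legacy method, protein-coding genes alone and the Lingo1 and Lingo2 knockout counts summed. Calls with at least a 2-fold difference, 408, became 689 with no filter and 176 with a mean of at least 5 CPM. Leaving out each library in turn gave 316 to 2892 called genes, 161 to 1593 higher, 155 to 1317 lower and 158 to 520 with a 2-fold difference. The lowest values came without the scratched parental library; without the unscratched one 377 were called, and without Lingo1 1340. With total counts 976 genes were higher and 1599 lower, and the median of all genes moved to -0.049. With no filter 1042 were higher and 1083 lower. The median log2 fold change of the mesenchymal list, 0.15, became -0.02 with no filter and -0.02 with a mean of at least 5 CPM; that of the PDGF and VEGF list, 0.14, became -0.01 under both; that of the endothelial markers, 0.19, became -1.03 with no filter. The cause was not tested. Over all alternatives 2107 values of named genes kept their call, 233 lost it and 0 turned direction. Genes below 1 CPM were not tested, and a count of 3 corresponds to at most 0.108 CPM. No paired analysis was possible because the labels give no replicate numbers.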
